A study of Danio rerio with 40 samples.

Results

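Genes of the Wnt pathway were read out in single cells of the adult zebrafish heart that are labelled as epicardial. The epicardium is the thin cell layer around the heart muscle. The members were all rows of the deposited matrix whose symbol in the supplied gene name table begins as that of a Wnt ligand, an R-spondin, a Frizzled, LRP or LGR receptor, a secreted antagonist or a TCF or LEF factor. This rule took 56 of 33737 rows and used no expression value. They comprise 24 rows for Wnt ligands, 3 for R-spondins, 13 for receptors, 11 for secreted antagonists and 5 for nuclear factors. Axin genes, LRP6, LGR5 and LGR6, which the rule also names, had no row under it and are not analysed here. The same holds for WNT5A, WNT5B, FZD1, FZD4, FZD6 and RSPO1, whose symbols the rule would have taken. The ligand, Frizzled and R-spondin rows are therefore not complete families, and nothing below speaks of these missing genes. Many symbols of the table are in capitals and can stand for more than 1 zebrafish gene copy, so the gene identifier is given where a symbol occurs in more than 1 row.

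The cells came from ventricles of EK strain zebrafish aged 6 months that carry the tcf21:nucEGFP transgene, in which nuclear green fluorescence is driven from tcf21, a gene used as an epicardial marker. Green cells that excluded propidium iodide were sorted and captured singly on the Fluidigm C1 device. There are 40 cells in 1 group, with no injury, treatment or second genotype, and no animal is named for any cell. The 40 cells are therefore described as 1 sample, no test was run between cells, and every SD below is a spread between cells.

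Wnt ligands are secreted, lipid-modified proteins that act over short distances. They bind a Frizzled receptor, and with the co-receptors LRP5 or LRP6 they stabilise beta-catenin, which enters the nucleus and works through TCF and LEF factors. Secreted Frizzled-related proteins (SFRP and frzb) bind Wnt ligands outside the cell, Dickkopf proteins (DKK) act at the LRP co-receptors, and R-spondins raise Wnt responses through LGR receptors. In the developing heart Wnt signals take part in the formation of the heart field and of the epicardium.

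The cells held 340293 to 5695770 reads in total, with a median of 3008670. Between 161 and 10792 genes of a cell had 5 or more expected reads, the level called detected here. TCF21 was detected in 37 of 40 cells. Of other epicardium markers, TBX18 was in 28 cells, ALDH1A2 in 8 and jam2b in 3. The 10 epicardium rows made up a median of 0.0879% of reads. A list of 10 fibroblast rows, TCF21 among them, made up 1.03%, and 6 rows for mural (vessel wall) cells 0.0665%. The fibroblast markers DCN and COL1A2 were detected in 38 and 37 cells. Whether single cells are epicardial cells or fibroblasts was not tested. Some cells stood apart. Cell 40 had the most genes detected, 10792, beside 4119 in cell 15, the next, and 15 cells had fewer than 2000. A list of 7 markers of heart muscle cells made up 15.9% of reads in cell 7, 15.6% in cell 33, 0.884% in cell 18, 0.288% in cell 40 and 0.251% in cell 27 (4 of the 7 detected in cells 18 and 27, 5 in cell 40), beside a median of 0.000480% over all cells. In cell 32 that list made up 0.138%, with 2 of the 7 detected. Macrophage markers made up 2.02% in cell 11 and 0.0820% in cell 34, with 4 and 1 of the 13 rows detected. Cell 26 had the highest shares of endothelial (0.162%) and lymphocyte markers (0.0656%), with 1 row of each detected. Cell 40 had markers of several cell types detected: 10 of 10 epicardium rows, 6 of 13 macrophage rows, and 1 row each for lymphocytes, erythrocytes and neural or glial cells. Whether its library comes from more than 1 cell was not tested. Values below are over all 40 cells unless the 25 cells with at least 2000 genes are named.

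Receptors, antagonists and TCF factors of the pathway were found in these cells, while few of the Wnt ligands that had a row were. Of the 56 members, 15 were detected in at least 10% of cells (26.8%), where 18.7% of all genes of the matrix were. In 1 cell or more 22 members were detected (39.3%), where 44.9% of all genes were. No read in any cell was assigned to 30 members (53.6%), beside 47.5% of all genes. A level of 50 CPM, the reads of a gene scaled to a cell total of 1000000, was reached in 1 cell or more by 18 members (32.1%), where 25.5% of all genes reached it. Among genes that have a symbol, as all members do, 22.8% were in at least 10% of cells, 52.5% were in 1 cell or more, 40.3% had no read and 32.1% reached 50 CPM in a cell. The members' share without a read lay above that of genes with a symbol, and their share at 50 CPM was level with it. By role, 7 of 13 receptors, 4 of 11 antagonists, 3 of 5 nuclear factors, 1 of 24 ligands and 0 of 3 R-spondins were in at least 10% of cells. In the 25 cells with at least 2000 genes, 16 members were in at least 10%, where 21.8% of all genes were, RSPO3 being added. Only LRP5 was detected in at least 50% of cells, a share that 3.49% of all genes reached.

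**Figure D1:**
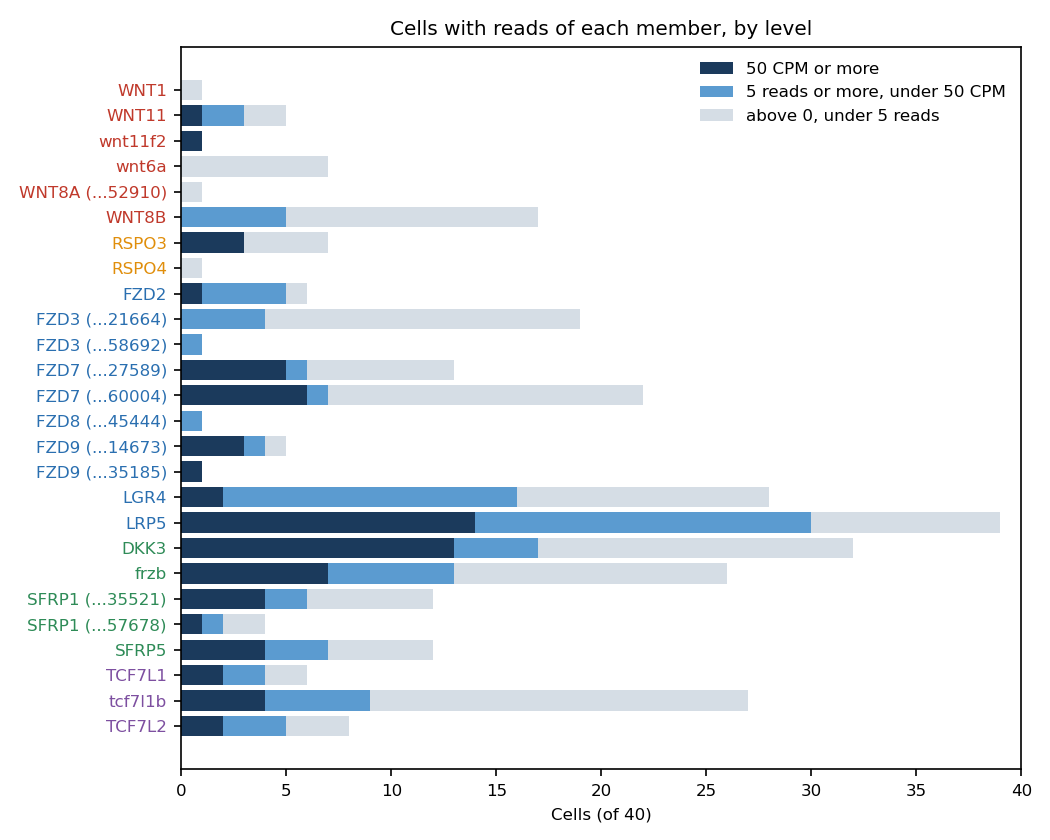
Number of the 40 cells (horizontal axis) with reads of each of the 26 members that had any read, coloured by level: 50 CPM or more, 5 or more reads but under 50 CPM, and above 0 but under 5 reads. Name colours mark the roles (red ligands, orange R-spondins, blue receptors, green antagonists, purple nuclear factors), and a number in brackets is the end of the gene identifier. LRP5 has the longest bar, with reads in 39 cells, and no ligand reaches 50 CPM in more than 1 cell.

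Among the 24 ligand rows, 18 had no read in any cell, among them those of wnt2, wnt2ba, WNT2B, WNT4, WNT9A, WNT9B and WNT16. For each row without a detected cell the limit allowed by 0 of 40 cells is a share of 7.5% of cells, which covers counting of cells and says nothing of levels under 5 reads. WNT1, WNT8A (ENSDARG00000052910) and wnt6a had reads but at most 2 in a cell. WNT11, a ligand mostly linked to signalling without beta-catenin, was detected in 3 cells, with 567 CPM in cell 25, 26.2 CPM in cell 40 and 16.2 CPM in cell 6. It lay between 0 and 567 CPM with a median of 0, and cell 25 held 93.0% of its summed CPM. wnt11f2, a related ligand gene, was detected in cell 6 alone, at 235 CPM, and had no read in the other 39 cells. WNT8B, a ligand of the beta-catenin route in vertebrate embryos, was detected in 5 cells, all with 5 to 6.42 reads, and had reads above 0 but under 5 in 12 others. Its level lay between 0 and 2.24 CPM with a median of 0, so the only ligand in at least 10% of cells passed at the detection level itself and was in 0 cells at 20 reads. At 50 CPM a ligand was found in 2 cells, 6 and 25 (5.0%, 95% Wilson interval 1.38 to 16.5%).

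R-spondins were detected in few cells, and their receptor LGR4 in more of them, mostly at few reads. RSPO3, a secreted amplifier of Wnt responses, was detected in 3 cells, with 112 CPM in cell 18, 100.5 CPM in cell 21 and 75.5 CPM in cell 40. The other cells had under 5 reads of it, and its median over 40 cells was 0. Cells 18 and 40 also held heart muscle markers, as given above, and whether these have a part in the RSPO3 reads was not tested. Cell 21 had no read of the 7 heart muscle markers. RSPO4 had 1.05 reads in 1 cell and RSPO2 none. LGR4, a receptor that binds R-spondins, was detected in 16 cells (40%, 26.3 to 55.4%) and in 13 of the 25 cells with at least 2000 genes. Its level ranged from 0 to 92.0 CPM with a median of 1.01 CPM and a mean of 6.14 ± 17.3 CPM, or 3.94 CPM without cell 40. It reached 50 CPM in cell 40 and in cell 31, which had 62.1 CPM, and the next cell, 29, had 19.1 CPM. Most cells with LGR4 thus lay near the detection level, and at 20 reads 5 cells (12.5%) were left. RSPO3 and LGR4 were both detected in cell 40 only, the cell with markers of several cell types.

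LRP5, the Wnt co-receptor, was the member found in most cells. It was detected in 30 of 40 cells (75.0%, 59.8 to 85.8%) and in 23 of 25 cells with at least 2000 genes, all but cells 11 and 37. Its level ranged from 0 to 874 CPM with a median of 30.6 CPM and a mean of 89.2 ± 162 CPM. It was highest in cell 39 (874 CPM), then in cells 19 (483 CPM), 26 (335 CPM) and 36 (216 CPM), and 14 cells reached 50 CPM. Cell 39 held 24.5% of its summed CPM, so LRP5 was spread over many cells. In cells 7 and 33, with heart muscle markers, it was at 17.9 and 0.706 CPM, and in cell 11, with macrophage markers, at 0.905 CPM. Cell 26, at 335 CPM, had 1 endothelial and 1 lymphocyte row detected. DKK3 came next in share of cells, at 42.5% (28.5 to 57.8%). The lead of LRP5 depended on the level asked for, with 62.5% of cells for LRP5 and 42.5% for DKK3 at 20 reads, and 35% and 32.5% at 50 CPM.

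Frizzled receptors, which bind the ligand itself, were found in 18 of 40 cells (45.0%, 30.7 to 60.2%), and 14 cells reached 50 CPM for one of them. Of 11 Frizzled rows, 5 were detected in at least 10% of cells, 3 in 1 cell each and 3 in none; FZD5, FZD10 and FZD8 (ENSDARG00000038569) had no read. The usual number per cell was small: 22 cells had 0, 12 had 1, 4 had 2 and 1 cell, number 9, had 3, while cell 40 had 6. At the level of 5 reads no cell had a Frizzled without LRP5, which allows a share of up to 7.5% of cells. That limit counts all 40 cells, of which only 10 lacked LRP5. At other levels this did not hold. Cell 17 had FZD7 (ENSDARG00000027589) at 1.38 CPM, under 5 reads, and no read of LRP5. Cell 5 had FZD2 at 101 CPM and LRP5 at 3.06 CPM. All 18 cells with a Frizzled also had LRP5 detected, and 12 cells had LRP5 without a Frizzled. Of the other 10 cells, with neither, 8 had fewer than 2000 genes detected, so that the pairing moves with genes detected, and the part of this in the pairing was not tested.

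FZD7, a Frizzled used by several Wnt ligands in vertebrates, was present in 2 separate rows, each with a cell at over 2000 CPM. FZD7 (ENSDARG00000060004) was detected in 7 cells (17.5%, 8.75 to 31.95%), with 7756 CPM in cell 6, 4500 CPM in cell 8, 1291 CPM in cell 15, 114 CPM in cell 23, 98.9 CPM in cell 14, 72.3 CPM in cell 40 and 2.08 CPM in cell 9. The other 33 cells had under 5 reads, and the median over 40 cells was 0.256 CPM. FZD7 (ENSDARG00000027589) was detected in 6 cells (15%, 7.06 to 29.1%), with 2404 CPM in cell 12, 158 CPM in cell 28, 139 CPM in cell 35, 84.3 CPM in cell 40, 67.3 CPM in cell 16 and 14.8 CPM in cell 22. One row or the other was detected in 12 cells, and both in cell 40 only, that is 16.7% of the cells with ENSDARG00000027589 and 14.3% of those with ENSDARG00000060004. These shares lie near those over all 40 cells, where ENSDARG00000060004 was in 17.5% and ENSDARG00000027589 in 15%. Without cell 40, no cell had both. The deposited values are estimates that divide reads of like sequences between copies, so the levels of single copies are uncertain. The pairs of rows with a shared symbol were chosen for comparison after the values had been seen.

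**Figure D2:**
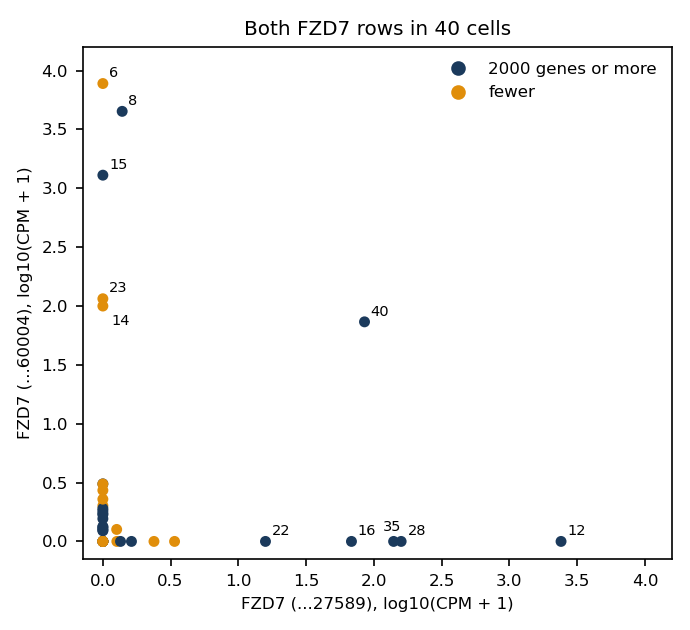
Levels of both FZD7 rows in each of 40 cells as log10(CPM + 1), with ENSDARG00000027589 on the horizontal and ENSDARG00000060004 on the vertical axis; numbers name cells and colours tell cells with at least 2000 genes (blue) from cells with fewer (orange). Cells with high values lie along one axis or the other, and only cell 40 has both rows at over 50 CPM.

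The other Frizzled rows were detected in 5 cells or fewer. FZD2 was detected in 5 cells, at 101 CPM in cell 5, 21.6 CPM in cell 15, 20.7 CPM in cell 13, 10.4 CPM in cell 40 and 9.58 CPM in cell 9. FZD9 (ENSDARG00000014673) was detected in 4, at 131 CPM in cell 26, 83.1 CPM in cell 22, 59.5 CPM in cell 38 and 23 CPM in cell 40. Among the 25 cells with at least 2000 genes these rows thus had few carriers, and no cell outside those 25 had either. FZD3 (ENSDARG00000021664), a Frizzled known from planar cell polarity, was detected in 4 cells at 2.08 to 8.90 CPM, with at most 12.15 reads, and had reads above 0 but under 5 in 15 others. A second FZD3 row (ENSDARG00000058692) and a second FZD9 row (ENSDARG00000035185) were detected in cell 40 alone, at 32.3 and 81.8 CPM, and FZD8 (ENSDARG00000045444) in cell 8 alone, at 7.38 CPM. Without cell 40, FZD9 (ENSDARG00000014673) and the nuclear factor TCF7L1 were in 3 of 39 cells each and fell under 10%. This left 13 members at that share, which 15.8% of all genes reached without cell 40 and 18.7% with it.

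Secreted antagonists were detected in 26 of 40 cells (65.0%, 49.5 to 77.9%) and reached 50 CPM in 20. Of the 11 rows, those of DKK3, frzb, SFRP1 (ENSDARG00000035521) and SFRP5 were in at least 10% of cells, while dkk1a, dkk1b, dkk2, WIF1, SFRP2 and sfrp2l had no read in any cell. DKK3, a divergent Dickkopf gene whose action on Wnt signalling differs between settings, was detected in 17 cells and in 14 of the 25 cells with at least 2000 genes. Its level ranged from 0 to 2359 CPM with a median of 2.67 CPM and a mean of 206 ± 467 CPM. It was highest in cell 15 (2359 CPM), then in cells 19 (1595 CPM), 38 (937 CPM) and 28 (561 CPM). The 17 detected cells had a median of 323 CPM, and 13 of them reached 50 CPM. A further 15 cells had reads above 0 but under 5, and the levels of detected and undetected cells met, at 11.66 CPM in detected cell 16 and 11.75 CPM in undetected cell 34. Of the cells named above for markers of other cell types, 7, 11, 33 and 34 had DKK3 undetected. Cell 34 had the fewest reads of all cells, 340293, and TCF21 at 4132 CPM. Cells 18, 26, 27, 32 and 40 had 100.1, 17.3, 20.2, 323 and 410.5 CPM.

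frzb, a secreted Frizzled-related protein gene known from cartilage, was detected in 13 cells (32.5%, 20.1 to 48.0%) and in 10 of the 25. Its level ranged from 0 to 8267 CPM with a median of 0.378 CPM and a mean of 311 ± 1328 CPM, or 107 CPM without cell 25. Cell 25 had 8267 CPM and held 66.4% of the summed CPM, and cells 13 (1671 CPM), 5 (787 CPM), 22 (752 CPM) and 40 (486 CPM) came next. Cell 26 had 310 CPM, cell 23 had 133 CPM, and the remaining 6 detected cells had between 1.61 and 13.7 CPM. No cell lay between 13.7 and 133 CPM, a gap seen in the values and not planned for. The 6 low cells had 5 to 40 reads, and 13 further cells had reads above 0 but under 5. The low cells thus run on into the undetected ones, and no classes are drawn from the gap.

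SFRP1 (ENSDARG00000035521), which encodes another Wnt-binding Frizzled-related protein, was detected in 6 cells (15%, 7.06 to 29.1%). It had 1437 CPM in cell 25, 754 CPM in cell 15, 464 CPM in cell 21, 68.5 CPM in cell 40, 19.3 CPM in cell 35 and 4.22 CPM in cell 19, and a median of 0 over 40 cells. Cells 25, 15 and 40 are also those with jam2b detected, and had ALDH1A2, a gene of retinoic acid synthesis, at 2583, 3940 and 433 CPM. Cell 21, the third highest for SFRP1, had no read of either ALDH1A2 or jam2b. ALDH1A2 was detected in 8 cells in all. These 2 genes are from a list of 10 epicardium marker rows, of which 7 were detected in cell 25, 8 in cell 15 and 10 in cell 40. Another of them, wt1b, had no read in cell 25 and 0.457 CPM in cell 15. The comparison was not among the planned results. A second SFRP1 row (ENSDARG00000057678) was detected in cell 40 at 53.4 CPM and in cell 18 at 8.71 CPM, and shared only cell 40 with the first. SFRP5 was detected in 7 cells (17.5%, 8.75 to 31.95%), with 456.3 CPM in cell 23, 304 CPM in cell 27, 66.9 CPM in cell 31, 56.6 CPM in cell 37, 45.0 CPM in cell 40 and under 10 CPM in cells 24 and 16. Its 2 highest cells had fewer than 2000 genes detected and are not among the 25, whose mean was 6.88 CPM beside 23.5 CPM over all 40 and 12.4 CPM without cell 23. Cell 27 also held heart muscle markers, with MYL7 at 2224 CPM, and the part of this in its SFRP5 value was not tested; cell 23 had MYL7 at 5.19 CPM.

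**Figure D3:**
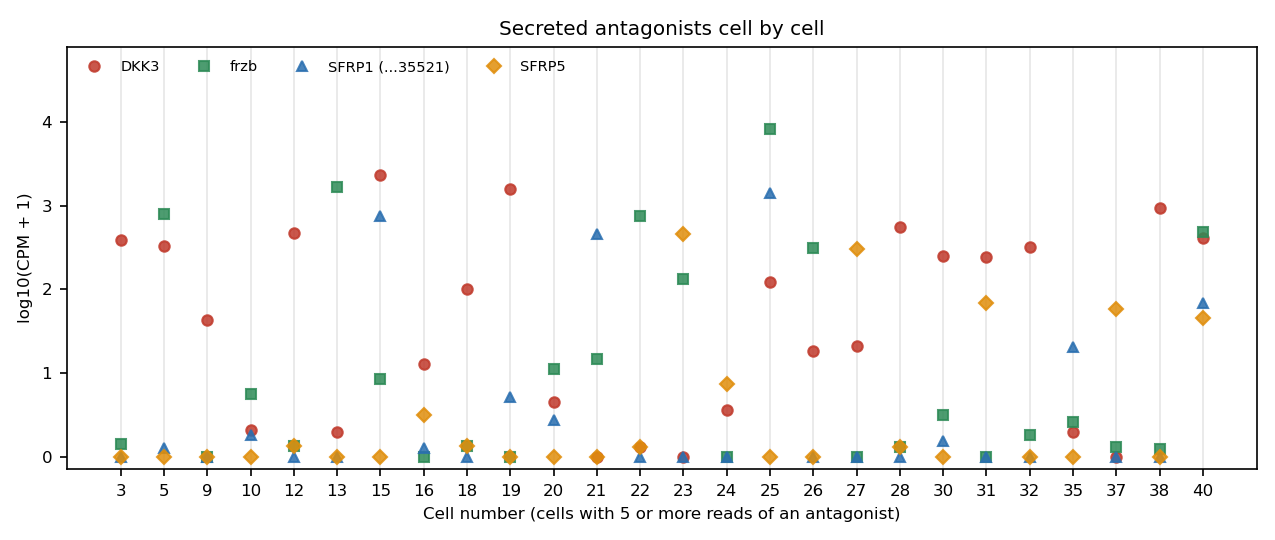
Levels of DKK3, frzb, SFRP1 (ENSDARG00000035521) and SFRP5 as log10(CPM + 1) on the vertical axis in each of the 26 cells with an antagonist detected, by cell number. Most cells show 1 or 2 of the symbols high and the others near 0; DKK3 is highest in cell 15, frzb in cell 25 and SFRP5 in cell 23.

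The number of antagonists differed between cells. Of 40 cells, 14 had none detected, 12 had 1, 11 had 2, 2 had 3 (cells 15 and 25) and 1, cell 40, had 5. DKK3 and frzb were both detected in 6 cells, which is 35.3% of the 17 DKK3 cells and 46.2% of the 13 frzb cells. These shares lie near those over all 40 cells, where frzb was in 32.5% and DKK3 in 42.5%. DKK3 was found together with any SFRP or frzb in 11 cells and without one in 6, and 9 cells had an SFRP or frzb without DKK3. An antagonist and a Frizzled were detected in the same cell in 14 cells, and an antagonist and a ligand in 4 (cells 19, 25, 28 and 40). LRP5 was present in 16 of 17 DKK3 cells (94.1%) and in 11 of 13 frzb cells (84.6%), beside 75.0% of all cells. Among the 25 cells with at least 2000 genes, it was in 14 of 14 DKK3 cells and 10 of 10 frzb cells, beside 92% of those 25.

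Nuclear factors of the TCF family were found in 14 cells (35%, 22.1 to 50.5%), and 7 cells had one at 50 CPM or more. tcf7l1b, which in zebrafish acts mainly as a repressor of Wnt target genes, was detected in 9 cells and had reads above 0 but under 5 in 18 more. Its level ranged from 0 to 1054 CPM with a median of 0.519 CPM and a mean of 32.7 ± 167 CPM, or 6.53 CPM without cell 13. Cell 13 held 80.6% of its summed CPM, followed by cells 38 (94.2 CPM), 26 (61.8 CPM) and 40 (55.2 CPM), and the other 5 cells had 1.39 to 11.6 CPM. TCF7L1, the related row, was detected in 4 cells, at 105 CPM in cell 15, 56.7 CPM in cell 40, 17.97 CPM in cell 10 and 8.58 CPM in cell 21, and shared cells 10 and 40 with tcf7l1b. TCF7L2, which can activate targets together with beta-catenin, was detected in 5 cells, at 499 CPM in cell 16, 142.5 CPM in cell 3 and 3.33 to 5.00 CPM in cells 9, 40 and 37. LEF1 and TCF7 had no read in any of the 40 cells.

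The members were patchy over cells. Among the 15 members in at least 10% of cells, 9 had a median of 0 CPM over the 40 cells, and in 8 a single cell held over 50% of the summed CPM. The median of that share was 52.2%, from 10.5% for WNT8B to 83.7% for FZD7 (ENSDARG00000027589), beside a median of 45.4% for all genes in at least 10% of cells. The counts of 9 and 8 were not made over all genes, so the patchiness is not read as particular to the members. For WNT8B, FZD3 (ENSDARG00000021664), both FZD7 rows and tcf7l1b, cells with reads above 0 but under 5 outnumbered the detected cells. The highest cell differed between members: FZD7 (ENSDARG00000060004) and wnt11f2 peaked in cell 6, WNT11, frzb and SFRP1 (ENSDARG00000035521) in cell 25, DKK3 and TCF7L1 in cell 15, and tcf7l1b in cell 13.

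**Figure D4:**
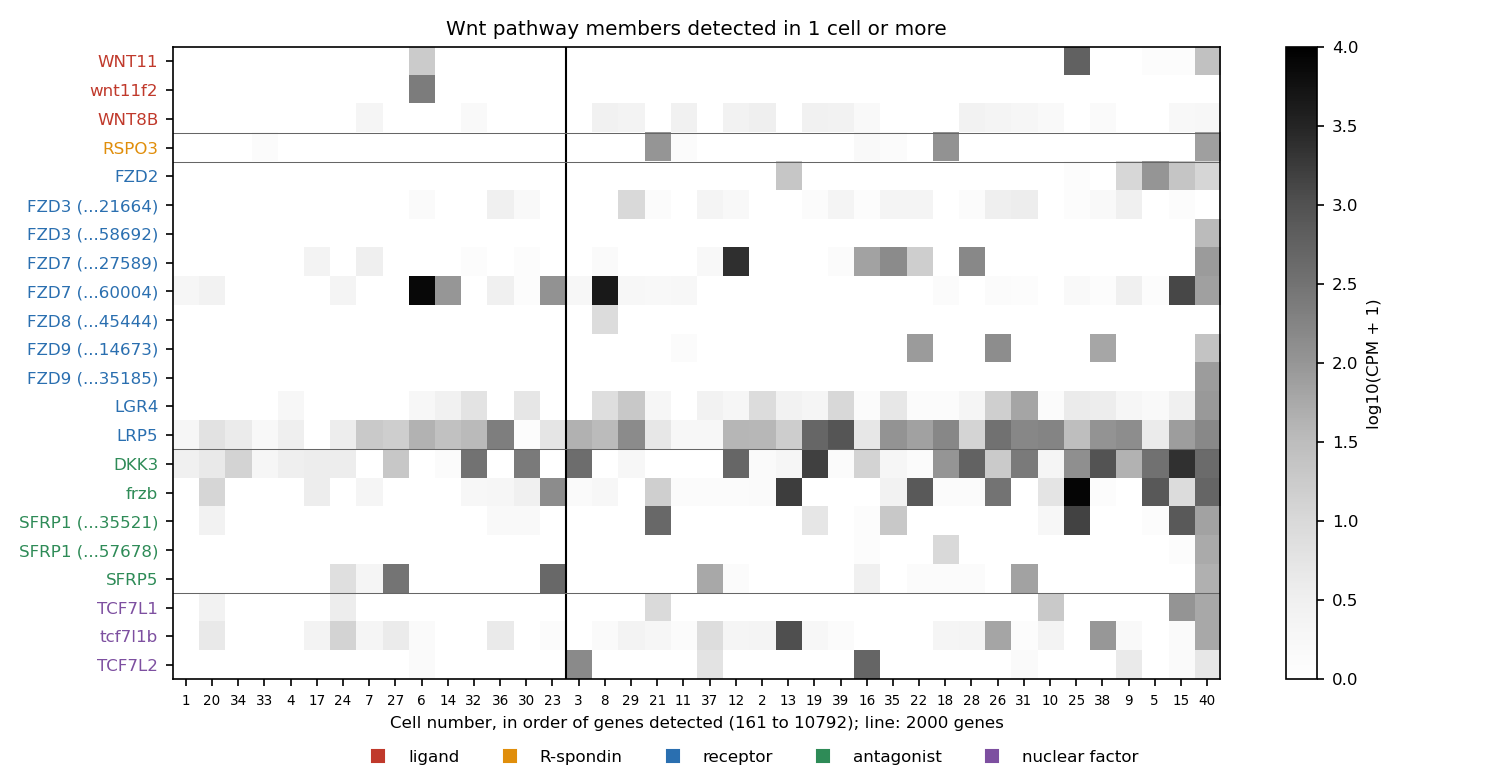
Levels of the 22 members detected in 1 cell or more (rows, coloured by role) in each of 40 cells (columns) as log10(CPM + 1), from white at 0 to black at 4, with cells in order of genes detected and a vertical line at 2000 genes. LRP5 forms a nearly full row, and DKK3 has 10 CPM or more in 18 cells. LGR4, tcf7l1b and frzb have reads in 28, 27 and 26 cells, most of them at under 10 CPM. Most other members show dark fields in few cells, and the column of cell 40 at the right is filled in most rows.

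The number of members per cell followed the number of genes detected. A median of 4 members per cell was detected, from 0 in cells 1, 4, 17, 33 and 34 to 18 in cell 40, and the next cell, 15, had 8. At 50 CPM the median was 1 member per cell, with 12 in cell 40. Across cells, Spearman's rho of members detected with genes detected was 0.799 over 40 cells, 0.783 without cell 40 and 0.595 over the 25 cells with at least 2000 genes. Both counts come from the same library of each cell and share its depth. Cell 6, with 1553 genes detected, had 4 members, among them the highest FZD7 value, while cell 11, with 2143 genes, had 1. A receptor was detected in 32 cells, a ligand in 8, and both together in 7.

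**Figure D5:**
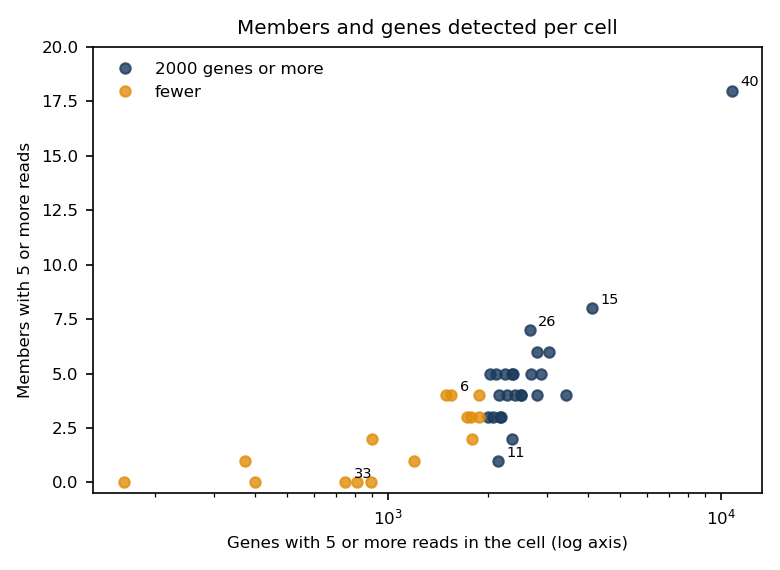
Members with 5 or more reads (vertical axis) against genes with 5 or more reads (horizontal log axis) in each of 40 cells; blue cells have at least 2000 genes, orange cells fewer, and numbers name cells. The points rise to the right, from 0 members at the left to 8 in cell 15 and 18 in cell 40.

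Other genes of the pathway were taken from a list of 93 symbols, of which 77 matched 74 rows. Of these, 30 were detected in at least 10% of cells (40.5%), where 18.7% of all genes and 22.8% of genes with a symbol were, and 19 in none. Without cell 40 there were 24, where 15.8% of all genes reached that share. Over all 40 cells the count was 9 of 19 for the destruction complex and signal relay, 8 of 16 for target genes, 5 of 14 for planar polarity, 4 of 10 for other receptors and modulators, 3 of 10 for nuclear partners and 1 of 5 for ligand secretion. WLS, which carries Wnt ligands to the cell surface, was that 1 secretion gene, detected in 14 cells, with a median of 0.682 CPM and a mean of 274 ± 624 CPM over all 40. CTNNB1, the beta-catenin gene, was detected in 13 cells, with a median of 0.272 CPM and a mean of 73.0 ± 273 CPM over all 40, or 32.3 CPM without cell 19. Both were singled out after their values had been seen. PRICKLE3, a planar polarity gene, was in 33 cells with a median of 10.8 CPM. GSK3A (ENSDARG00000029501), a kinase of the destruction complex, was in 21 with a median of 1.85 CPM. APCDD1L, a relative of the Wnt inhibitor gene APCDD1, was in 21 with a median of 1.76 CPM. GSK3A (ENSDARG00000029501) and APCDD1L reached 50 CPM in 0 cells, PRICKLE3 in 8. PRICKLE3 and APCDD1L were highest in cell 7, which held heart muscle markers, at 477 and 24.2 CPM. Whether these markers have a part in that was not tested.

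Genes listed as Wnt targets were present in very different shares of cells. SP5, a direct target in vertebrate embryos, was detected in 33 cells (82.5%, 68.1 to 91.3%) at 0 to 267 CPM, with a median of 16.7 CPM. It reached 50 CPM in 7 cells. MYC (ENSDARG00000007241) and JUN were detected in all 40 cells, with medians of 1625 and 2692 CPM, and FOSL1 in 36. These 3 genes are also switched on by many stimuli other than Wnt. Whether Wnt signals have a part in the reads of any listed target, SP5 included, was not tested. A second MYC row (ENSDARG00000045695) was in 5 cells, twist1a in 13, dact3a in 11 at no more than 48.2 CPM, and CCN4 (ENSDARG00000076685) in 6, with 2760 CPM in cell 25. The other 8 target rows were under 10% of cells: NKD1 was in 3, ccn4a in 2, cd44b in 1, and NKD2, dact2, TBXT, cdx4 and cd44a had no read in any cell.

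Genes most like the leading member of a role were ranked by Spearman correlation of log2(CPM + 1) over the 25 cells with at least 2000 genes, among 3608 genes with a symbol. LRP5 and RSPO3 were in 92% and 12% of those cells, outside the range of 20 to 80% that was ranked. For DKK3 the 5 highest were cebpg (rho 0.761), COQ10B (0.747), capns1b (0.659), tpm4a (0.622) and ankrd10b (0.620), and DKK3 was detected in 10 of the 11 cells with cebpg, 7 of 7 with COQ10B, 12 of 15 with capns1b, 14 of 17 with tpm4a and 5 of 5 with ankrd10b. For tcf7l1b, in 6 of 25 cells, they were TMBIM4 (0.743), mpzl1l (0.714), PMP22 (0.689), PLOD2 (0.618) and C25H11orf96 (0.606). tcf7l1b was detected in 4 of the 6 cells with TMBIM4, 5 of 10 with mpzl1l and 4 of 5 with PLOD2. It was in 6 of 24 cells with PMP22 and 6 of 17 with C25H11orf96, genes found in most of the 25 cells. For WNT8B, in 5 of 25 cells near the detection level, they were atp6ap1a (0.632), si:zfos-979f1.2 (0.631), MSN (0.619), zgc:113176 (0.5997) and rnf169 (0.595). WNT8B was detected in 2 of the 7 cells with atp6ap1a, 3 of 5 with si:zfos-979f1.2, 5 of 24 each with MSN and zgc:113176 and 0 of 5 with rnf169, so these values rest largely on reads under the detection level. These are the highest of many values over few cells that share 1 sample and differ in genes detected, so they describe these libraries only.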

How the data were processed

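Reads of 40 sorted and singly captured zebrafish cells were analysed as deposited. The authors' matrix gives expected counts, that is, estimated reads per gene that need not be whole, and it was not scaled between cells. The submitters' processing notes name RSEM 1.2.12, Bowtie2 and Zv9 as tools and build. How each was set, and which gene annotation went with them, is not given in the sources used here. The protocol names no molecular identifiers, so the intervals and limits below allow for counting error alone.

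From the deposited expected counts, CPM were computed over the total of all 33737 rows of a cell. Genes with 5 or more expected reads were called detected. No cell was left out of the main values; 25 cells with at least 2000 genes detected are given beside them. No doublet caller was run on so few libraries, and no 2 cells had identical values (0 pairs). Symbols came from the gene name table for 65.0% of rows. Members detected in at least 10% of cells are named with values. CPM are not corrected for gene length, so mean and median levels are not compared between genes. Shares of cells at a given number of reads or CPM are compared, and they are not corrected for length either. The planned level per kilobase was not computed because no transcript lengths were at hand. Shares have a 95% Wilson interval, and 0 cells is given with the limit of 3 cells of 40. Since all cells form 1 group without named animals, no test was run. Listed genes of the pathway were matched by symbol, ignoring case, or failing that without the letter that marks a gene copy. Counting and ranking steps were run on simulated data with planted answers far from the detection level. This checks the code and not how reliable the counts and rankings are. The members, gene lists and alternatives were chosen with earlier results of these data known; 2 alternatives were added after seeing the files. Software was Python 3.11.15 with pandas 2.3.3 and scipy 1.17.1, and edgeR 4.0.16 for the alternative TMM scaling.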

Additional observations from a re-analysis of the deposited data

How the results depend on the processing

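No paired analysis was possible because all cells belong to 1 group. Counts of members moved with the detection level. At any read above 0, 3 ligands and 1 R-spondin were in at least 10% of cells, the median was 8 members per cell, and 29.2% of all genes reached that share. At 20 reads, 0 ligands and a median of 2.5 members per cell were counted, and 13.9% of all genes reached that share. At 10 CPM there were 0 ligands, 1 nuclear factor and a median of 2 members per cell, and 12.7% of all genes reached it. At 50 CPM there were 8 members in at least 10% of cells, with 0 ligands, 3 receptors and 1 nuclear factor, a median of 1 member per cell, 15 other genes of the pathway and 7.53% of all genes. In the 25 cells with at least 2000 genes, 1 R-spondin was counted. Among genes detected in at least 3 cells only, 88.2% of members and 78.5% of all genes were in at least 10% of cells. Of the 5 genes named for WNT8B, 0 were among the 5 over all 40 cells and 3 with TMM scaling; for DKK3 3 and 3, and for tcf7l1b 1 over all 40 cells and 3 without cell 40. Without cells 7, 11 and 33, and without those and cells 1, 18 and 40 (added after seeing the data), each count by role stayed within 1.5 times its value. The 30 members with no read are 0 under each of these settings. For the other 26, the share of cells left its Wilson interval in 38 of 208 alternative values, 11 of them at any read above 0 and 11 at 50 CPM. Mean CPM were unstable: 82 of 182 alternative values differed from the mean over 40 cells by over 1.5 times, 21 of them without the cell highest for that member (added after seeing the data). Among the means printed, LRP5 was 58.6 and LGR4 4.04 CPM with TMM scaling; DKK3 was 101, frzb 154, SFRP5 13.02 and tcf7l1b 18.8 CPM with median-of-ratios scaling; and LGR4 was 9.33, frzb 492 and tcf7l1b 51.4 CPM over the 25 cells. The cause of these differences was not tested. Depth limits what an absent read shows: members under 5 reads in a cell cannot be told from members not expressed there.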
